A study of Mus musculus with 7 samples.

Results

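The *Hox* genes encode homeodomain transcription factors and lie in 4 clusters, HoxA to HoxD. All genes of the deposited RefSeq table whose symbol is *Hox* followed by a cluster letter and a number were taken, which gave 39 of 24739 genes: 11 in HoxA, 10 in HoxB, 9 in HoxC and 9 in HoxD. They were measured by RNA-Seq in whole testes of C57BL/6 mouse embryos at E14.5, with 3 libraries labelled wild-type (WT) and 4 labelled *Glis3* zf5 homozygous (Mutant). The zf5 allele is a global null mutation of *Glis3*, and the labels give no other allele and no treatment in either group. Each library was made from the pair of testes of 1 embryo, from total RNA depleted of ribosomal RNA and primed with random primers. Values are FPKM, fragments scaled to the length of the transcript and the size of the library, so genes of different length can be compared within a library.

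In vertebrates the order of *Hox* genes along a chromosome follows the order in which they are used along the body axis: genes of low number act toward the head and genes of high number toward the tail. Genes of the same number in different clusters descend from 1 ancestral gene and form a paralog group. Intermediate mesoderm, from which the gonad and kidney arise, lies in the trunk, and *Hox* genes of the middle and posterior groups are known to act in the development of the urogenital tract.

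The expression of *Hox* genes in the fetal testis was concentrated in the HoxD cluster, and within HoxD in the 4 genes from *Hoxd4* to *Hoxd10*. *Hoxd8* had the highest level of all *Hox* genes, with a mean of 58.9 ± 6.08 FPKM (SD, n = 7 libraries), and ranked 1490 among the 24739 genes of the table. It was followed by *Hoxd9* with 17.1 ± 1.58 FPKM, *Hoxd10* with 10.6 ± 1.08 FPKM and *Hoxd4* with 8.81 ± 1.03 FPKM. Together these 4 genes made up between 71.9% and 78.3% of the summed FPKM of the 39 *Hox* genes in a library. *Hoxd8* alone made up between 40.3% and 51.6%.

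Toward either end of the HoxD cluster the levels were lower. *Hoxd10* and *Hoxd11*, whose gene models start 12.3 kb apart, had means of 10.6 and 0.73 FPKM, and *Hoxd10* was between 9.58 and 22.5 times as high as *Hoxd11* in each library. *Hoxd12* and *Hoxd13* followed with means of 0.0182 and 0.0196 FPKM. On the other side of *Hoxd8*, *Hoxd4* was 0.122 to 0.191 times as high, *Hoxd3* had a mean of 2.49 FPKM and *Hoxd1*, at the other end of the cluster, 0.083 FPKM.

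**Figure D1:**
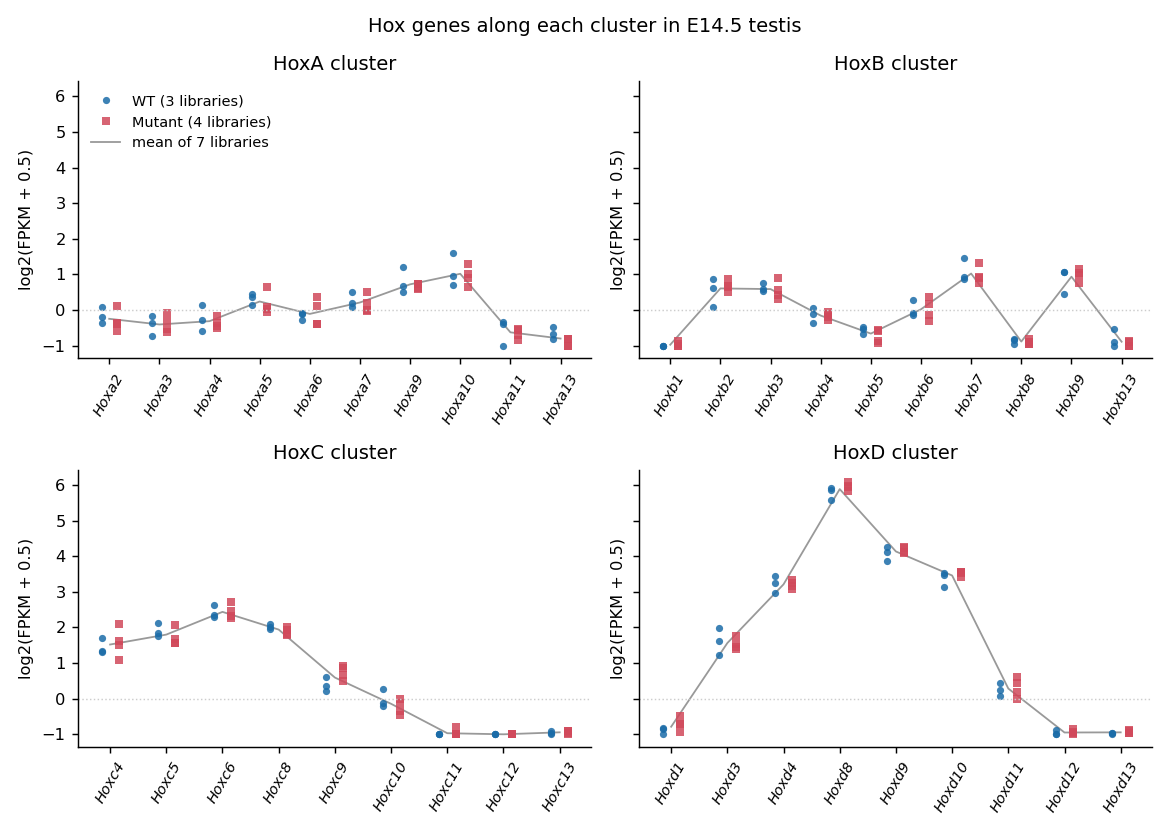
Level of each *Hox* gene in order of its number along the 4 clusters, as log2(FPKM + 0.5) on the y axis; each circle is 1 of 3 WT libraries, each square 1 of 4 Mutant libraries and the grey line the mean of the 7 values. HoxD peaks at *Hoxd8* and drops between *Hoxd10* and *Hoxd11*, HoxC peaks at *Hoxc6*, and WT and Mutant points lie together along every cluster; the dotted line marks 0.5 FPKM, and 1 gene of HoxA is not shown.

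The sequences before the starts of the genes on either side of this drop are given to show what each side holds. They are the 250 bases upstream of the RefSeq start, on the plus strand of chromosome 2 (GRCm38, the build of mm10), where all HoxD genes are transcribed toward *Hoxd1*. Capitals mark matches, on either strand, to TATAAA (the TATA box), CCAAT (the CCAAT box, read ATTGG on the other strand), TAATTA (a core bound by many homeodomain proteins) and GGGGGGT (a G-rich core), none of which overlapped another in these windows. For *Hoxd8* the window was chr2:74704365-74704614, for *Hoxd9* chr2:74697513-74697762, for *Hoxd10* chr2:74691641-74691890 and for *Hoxd11* chr2:74679308-74679557.
Hoxd8: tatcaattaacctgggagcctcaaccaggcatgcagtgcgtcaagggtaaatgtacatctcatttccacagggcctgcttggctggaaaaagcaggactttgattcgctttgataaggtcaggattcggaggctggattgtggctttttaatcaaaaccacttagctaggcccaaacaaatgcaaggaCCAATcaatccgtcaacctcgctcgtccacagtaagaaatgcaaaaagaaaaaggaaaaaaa
Hoxd9: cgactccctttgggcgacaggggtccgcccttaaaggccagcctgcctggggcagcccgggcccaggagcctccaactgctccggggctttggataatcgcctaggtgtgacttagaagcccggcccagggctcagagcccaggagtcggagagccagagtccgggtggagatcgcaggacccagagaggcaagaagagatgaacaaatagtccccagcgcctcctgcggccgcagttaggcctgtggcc
Hoxd10: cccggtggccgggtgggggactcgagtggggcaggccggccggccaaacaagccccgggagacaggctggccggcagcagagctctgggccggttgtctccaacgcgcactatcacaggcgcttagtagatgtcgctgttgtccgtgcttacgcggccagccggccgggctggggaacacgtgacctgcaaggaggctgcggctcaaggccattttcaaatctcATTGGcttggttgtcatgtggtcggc
Hoxd11: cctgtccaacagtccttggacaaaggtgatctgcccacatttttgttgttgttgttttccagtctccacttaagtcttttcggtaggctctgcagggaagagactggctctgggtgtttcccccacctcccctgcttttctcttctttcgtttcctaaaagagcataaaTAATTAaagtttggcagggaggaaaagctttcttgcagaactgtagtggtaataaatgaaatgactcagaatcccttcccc
The 4 windows differed in composition: the GC content was 44.4% for *Hoxd8*, 65.2% for *Hoxd9*, 65.6% for *Hoxd10* and 44.8% for *Hoxd11*. RefSeq gives *Hoxd11* a second start, further into the gene, whose window had a GC content of 60.4% and 20 CpG dinucleotides, against 2 in the window shown. The *Hoxd8* and *Hoxd10* windows each held 1 CCAAT match, the *Hoxd9* window held none of the 4 motifs, and the *Hoxd11* window held 1 TAATTA match. RefSeq windows were at hand for 22 of the 39 genes, including all 9 of HoxD, and the first start of each gene was used. CCAAT was present in 13 of the 22 (59.1%), against 33.9% of 32851 windows of the same length over all genes. The corresponding shares were 13.6% and 12.4% for TATAAA, 4.55% and 4.84% for TAATTA and 9.09% and 4.65% for GGGGGGT. *Hoxd11* was the only one of the 22 with a TAATTA match. The *Hox* windows had a median GC content of 56.8% and a median of 12 CpG dinucleotides, against 52.4% and 6 over all windows.

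HoxC was the second cluster by level, and it peaked at a lower number than HoxD, which has no gene between *Hoxd4* and *Hoxd8*. *Hoxc6* was the highest with a mean of 4.95 FPKM, above *Hoxc8* with 3.35, *Hoxc5* with 3.02 and *Hoxc4* with 2.44 FPKM. From *Hoxc8* the level went down along the cluster in every library, to *Hoxc9* (1.03 FPKM), *Hoxc10* (0.416 FPKM) and *Hoxc11*, which was above 0 in 1 library. *Hoxc12* was listed at 0 in all 7 libraries, the only *Hox* gene for which this was so, and *Hoxc13* did not pass 0.0363 FPKM.

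HoxA and HoxB held no gene with a mean of 2 FPKM or more. In HoxA the level was highest at *Hoxa9* and *Hoxa10*, with means of 1.17 and 1.57 FPKM, *Hoxa10* being above *Hoxa9* in 7 of 7 libraries. The next gene, *Hoxa11*, had a mean of 0.155 FPKM, and the ratio of the means of *Hoxa10* and *Hoxa11* was 10.2. HoxB did not follow a single rise and fall: *Hoxb7* and *Hoxb9* had means of 1.56 and 1.43 FPKM, and *Hoxb8*, between them, had 0.0412 FPKM. The ratio of *Hoxb7* to *Hoxb8* lay between 18.4 and 124 in every library. *Hoxb2* and *Hoxb3*, at the anterior end, had 1.04 and 1.01 FPKM, whereas *Hoxb1* was above 0 in 2 libraries.

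Paralogs of the same number were far apart in level. *Hoxd8* was between 13.5 and 21.1 times as high as *Hoxc8* in each library, and the third member of the group, *Hoxb8*, was near 0. In paralog group 9, *Hoxd9* was 9.49 to 20.2 times as high as *Hoxa9* and 9.85 to 16.1 times as high as *Hoxb9*. In group 10, *Hoxd10* was 4.32 to 10.7 times as high as *Hoxa10*. In group 4 the ratio of *Hoxd4* to *Hoxc4* was smaller, from 2.54 to 5.15. The HoxD member had the highest mean in groups 3, 4, 8, 9, 10, 11 and 12, the HoxC member in groups 5 and 6, the HoxB member in groups 2 and 7 and the HoxA member in group 13; HoxD has no gene in groups 2, 5, 6 and 7.

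**Figure D2:**
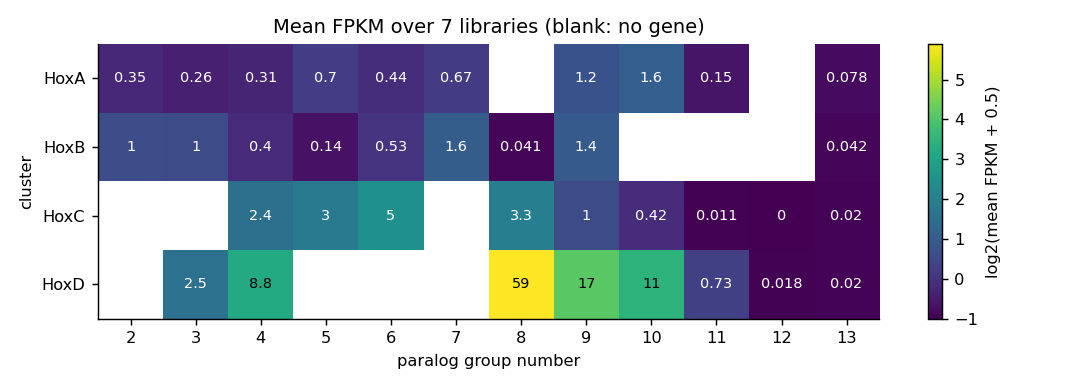
Mean FPKM over the 7 libraries (numbers in the cells) of each *Hox* gene by cluster (rows) and paralog group (columns, from group 2), coloured by log2(mean FPKM + 0.5); blank cells have no gene. The highest cell is *Hoxd8* at 59 FPKM, and the cells of groups 11 to 13 lie below 1 FPKM in all clusters.

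The posterior ends of all 4 clusters were low. The 9 genes of groups 11 to 13 had means of at most 0.73 FPKM, the level of *Hoxd11*. Of the 39 genes, 28 had a mean of at least 0.1 FPKM, 20 of at least 0.5, 16 of at least 1, 9 of at least 2 and 3 of at least 10 FPKM. The 16 genes at 1 FPKM or more were 2 of HoxA, 4 of HoxB, 5 of HoxC and 5 of HoxD. Ordered by their mean, *Hoxd8* and *Hoxd9*, *Hoxd9* and *Hoxd10*, *Hoxd4* and *Hoxc6*, and *Hoxc6* and *Hoxc8* were neighbours whose ranges over the 7 libraries did not overlap. All other neighbours among the first 16 overlapped, although *Hoxd10* was above *Hoxd4* within each of the 7 libraries.

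Some of these levels rest on gene models that overlap from start to end, introns included, and the libraries did not keep the strand of the RNA. The model of *Hoxd3* overlaps *Hoxd4*, *Mir10b* and, on the other strand, *Hoxd3os1*. That of *Hoxa3* overlaps *Hoxa4*, *Hoxa5*, *Hoxa6* and, on the other strand, *Hoxaas3*, and *Hoxa11* overlaps *Hoxa11os*. Whether these partners share exon bases was not tested. Reads cannot be told apart on any exon bases they share, and the values of *Hoxd3*, *Hoxd4*, *Hoxa3* to *Hoxa6* and *Hoxa11* carry that uncertainty. In bulk tissue, fewer cells of a type and less RNA per cell cannot be told apart either.

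The labels were checked with *Glis3* before the groups were compared. Its FPKM was 7.63, 6.89 and 2.91 in the WT libraries and 3.86, 3.26, 2.90 and 2.66 in the Mutant libraries (log2 fold change -0.69, standard error 0.28, adjusted p = 0.268 from limma). Since *Glis3* in the library labelled wild-type replicate 3 was as low as in Mutant, results are also given without it; *Glis3* then had a log2 fold change of -1.09 and an adjusted p of 0.00992 from limma. The allele lacks only a part of the gene, and the FPKM value also counts exons outside of that part. Sertoli cell genes (summed FPKM from 570 to 864 in a library), fetal Leydig cell genes (1679 to 3184) and germ cell genes (485 to 1365) were present in every library, with no gene of the 3 lists at 0. All 10 germ cell genes had lower means in Mutant, and all 8 fetal Leydig cell and all 10 Sertoli cell genes higher means. Genes listed for the mesonephric duct and tubules, which adjoin the testis, summed to between 88.9 and 115 FPKM. The sums were 78.0 to 115 FPKM for the adrenal cortex, 51.1 to 75.4 FPKM for the metanephric kidney and 28.6 to 106 FPKM for skeletal muscle. Single genes made up much of some sums. *Cited1* of the kidney list was between 43.6 and 67.8 FPKM and *Nr5a1* of the adrenal list between 57.7 and 82.3 FPKM. *Cyp11b1* of the adrenal list was between 3.56 and 16.0 FPKM. *Six2*, *Cyp11b2*, *Gata3*, *Cdh16*, *Wnt9b* and *Pax2* of these lists did not pass 0.26 FPKM. Whether these tissues were in the libraries was not tested. The summed FPKM over all genes was between 694243 and 1018678 in a library, and the number of fragments behind a value is unknown.

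None of the tested *Hox* genes passed the test between Mutant and WT testes. Of the 20 *Hox* genes that were tested, those whose mean reached 0.5 FPKM, 0 were past the adjusted threshold of 0.05 and 0 had an unadjusted p under 0.05 (limma on log2(FPKM + 0.5), two-sided, Benjamini-Hochberg adjustment). Over all 13988 genes tested, 0.00715% were past the adjusted threshold, which is 1 gene, *Cpsf4l*, and the unadjusted p was under 0.05 with a higher level in Mutant for 8.21% and with a lower level for 8.79%. In none of the 20 *Hox* genes did the 2 groups stay apart, against 7.31% of all tested genes with every Mutant value above every WT value and 7.59% with every Mutant value below. Without the library labelled wild-type replicate 3, 722 of 14019 genes tested were past the threshold (5.15%), and again 0 of 19 *Hox* genes were (limma). In that setting 0 of the 19 had an unadjusted p under 0.05, against 23.6% of all genes, and 0 had groups that did not overlap, against 32.6%.

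The estimates were small and of both signs: 10 were positive and 10 negative, from -0.20 to 0.34 on the log2 scale, with a median of -0.01 against 0.01 for all genes tested. With 1 library left out, this median lay between -0.1052, when WT replicate 2 was omitted, and 0.0869, when the library labelled wild-type replicate 3 was omitted. By cluster, the medians were -0.13 for the 4 tested genes of HoxA, 0.0008 for 5 of HoxB, 0.02 for 5 of HoxC and 0.07 for 6 of HoxD. By position, they were -0.02 for groups 1 to 4, -0.11 for groups 5 to 8 and 0.09 for groups 9 to 13. The summed FPKM of the 39 genes was 122 ± 7.75 (SD, n = 3) in WT and 129 ± 9.31 (SD, n = 4) in Mutant, and HoxD held 77.1 ± 2.32% and 79.4 ± 1.48% of it.

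**Figure D3:**
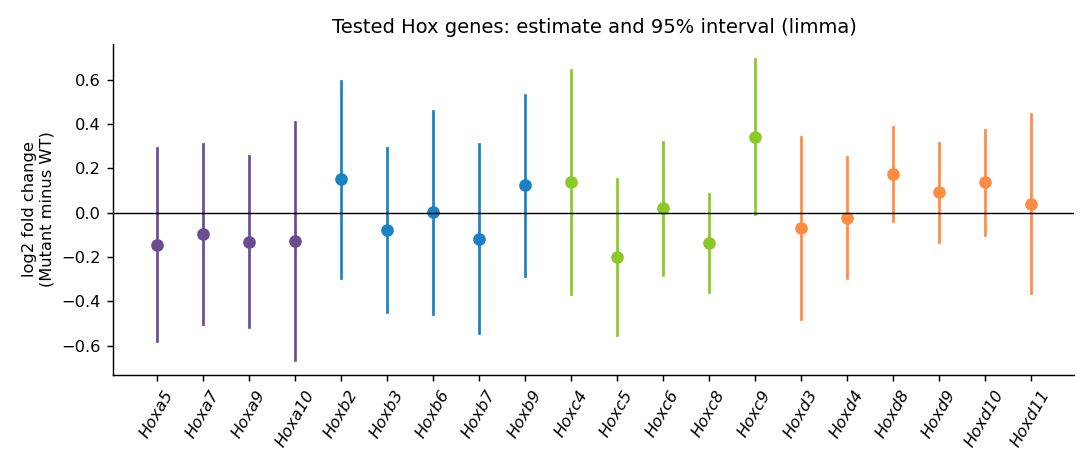
Log2 fold change (Mutant minus WT, on log2(FPKM + 0.5)) of the 20 tested *Hox* genes by cluster and number; points are limma estimates, bars their 95% intervals and colours the clusters. The estimates lie between -0.20 and 0.34, and all 20 intervals include 0.

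*Hoxd8*, the most abundant *Hox* mRNA, was at 47.4, 60.2 and 57.2 FPKM in the WT libraries and at 62.0, 66.9, 56.9 and 61.5 FPKM in the Mutant libraries. The lowest value was that of WT replicate 1, and the other two WT values lay within the Mutant range. The means were 54.9 ± 6.70 (SD, n = 3) and 61.8 ± 4.08 FPKM (SD, n = 4), which gave a log2 fold change of 0.17 (standard error 0.09, 95% interval -0.04 to 0.39, adjusted p = 0.376 from limma). Leaving out WT replicate 1 lowered the estimate to 0.0728, and leaving out WT replicate 2 brought it to 0.24. Without WT replicate 2 *Hoxd8* had an unadjusted p under 0.05 (adjusted p = 0.260 from limma), beside 17.7% of all genes in that setting. Without Mutant replicate 3 its groups did not overlap, which held for 1 of 20 *Hox* genes. No share over all genes is given for that setting.

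*Hoxd9* was at 17.0, 14.1 and 18.5 FPKM in WT and at 18.5, 18.3, 16.8 and 16.6 FPKM in Mutant (log2 fold change 0.09, 95% interval -0.13 to 0.31). *Hoxd10*, given with *Hoxd4* and *Hoxd11* because of the level they hold in the cluster, was at 11.05, 8.28 and 10.7 FPKM in WT and at 11.4, 11.1, 11.2 and 10.2 FPKM in Mutant. In both genes WT replicate 2 was the lowest of the 7 libraries, and the other libraries overlapped. *Hoxd4* was at 9.06, 7.35 and 10.4 FPKM in WT and at 8.93, 9.64, 8.39 and 7.92 FPKM in Mutant, with the 4 Mutant values inside the range of WT. *Hoxd11*, beyond the drop, was at 0.687, 0.865 and 0.562 FPKM in WT and at 0.845, 1.02, 0.4997 and 0.629 FPKM in Mutant. Its groups overlapped as well, and the drop from *Hoxd10* to *Hoxd11* was 14.9 ± 4.81-fold (SD, n = 3) in WT and 15.7 ± 4.98-fold (SD, n = 4) in Mutant.

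**Figure D4:**
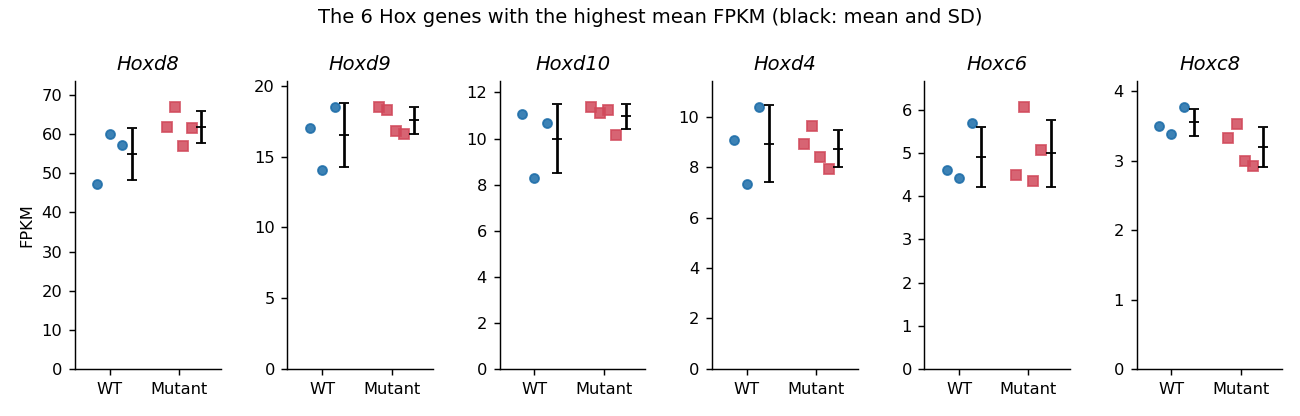
FPKM (y axis, from 0, a scale for each gene) of the 6 *Hox* genes with the highest means; circles are WT libraries, squares Mutant libraries, and black bars the mean and SD of each group (n = 3 and n = 4). The groups overlap for each gene, including *Hoxd8* with 47.4 to 60.2 FPKM in WT and 56.9 to 66.9 FPKM in Mutant.

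The largest estimates were in HoxC. *Hoxc9*, the paralog of *Hoxd9*, was at 1.03, 0.791 and 0.657 FPKM in WT and at 1.09, 0.920, 1.33 and 1.39 FPKM in Mutant. Only Mutant replicate 2 lay within the WT range, and its log2 fold change came to 0.34 (standard error 0.15, 95% interval -0.01 to 0.69, unadjusted p = 0.0542, adjusted p = 0.303 from limma). *Hoxc5* had the most negative estimate of the 20, -0.20 (95% interval -0.55 to 0.15), with 3.07, 2.92 and 3.88 FPKM in WT and 2.45, 3.70, 2.45 and 2.67 FPKM in Mutant. There too, Mutant replicate 2 was the one Mutant library within the WT range. *Hoxc8* was at 3.50, 3.39 and 3.77 FPKM in WT and at 3.33, 3.53, 2.99 and 2.92 FPKM in Mutant (log2 fold change -0.14), again with Mutant replicate 2 inside the range of WT and the other 3 below it. *Hoxc6*, the most abundant of the cluster, was at 4.62, 4.41 and 5.69 FPKM in WT and at 4.49, 6.06, 4.34 and 5.06 FPKM in Mutant (log2 fold change 0.02). Its highest value was that of Mutant replicate 2.

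Mutant replicate 2 thus weighed on the comparison: it held the highest value for 7 of the 20 tested genes, and WT replicate 2 the lowest for 6. Without Mutant replicate 2 the groups of *Hoxa5*, *Hoxc5*, *Hoxc8* and *Hoxc9* no longer overlapped and *Hoxc5* and *Hoxc9* had an unadjusted p under 0.05, out of 19 *Hox* genes then tested. Over all 13986 genes in that setting the groups did not overlap for 19.4% and the unadjusted p was under 0.05 for 12.7%; these shares were 4 of 19 and 2 of 19 for the *Hox* genes. None of the 19 was past the adjusted threshold, against 0.00715% of all genes (limma). The log2 fold changes without this library were -0.32 for *Hoxc5* (adjusted p = 0.372 from limma) and 0.42 for *Hoxc9* (adjusted p = 0.364 from limma). Without the library labelled wild-type replicate 3 they went the other way, to -0.09 and 0.25.

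In HoxA, all 4 tested genes had negative estimates, from -0.14 to -0.10. *Hoxa5* was at 0.786, 0.607 and 0.869 FPKM in WT and at 0.460, 1.06, 0.519 and 0.570 FPKM in Mutant. *Hoxa9* was at 1.80, 1.11 and 0.915 FPKM in WT and at 1.14, 1.15, 1.01 and 1.05 FPKM in Mutant. *Hoxa10* was at 2.56, 1.45 and 1.121 FPKM in WT and at 1.51, 1.38, 1.05 and 1.96 FPKM in Mutant. WT replicate 1 was the highest library for *Hoxa9* and *Hoxa10* and also for *Hoxa7*, and the estimates of *Hoxa9* and *Hoxa10* were positive without it, at 0.07 and 0.13. That library and Mutant replicate 4, the next for *Hoxa10* and *Hoxa7*, had the 2 highest sums of skeletal muscle genes, 91.4 and 106 FPKM against 28.6 to 53.3 FPKM in the other 5; the part of this in the HoxA values was not tested.

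In HoxB, *Hoxb2* was at 1.33, 0.555 and 1.03 FPKM in WT and at 0.908, 1.32, 1.08 and 1.08 FPKM in Mutant (log2 fold change 0.15). *Hoxb7* was at 1.33, 1.41 and 2.27 FPKM in WT and at 1.98, 1.19, 1.37 and 1.40 FPKM in Mutant (log2 fold change -0.12). *Hoxb9* was at 1.61, 0.870 and 1.59 FPKM in WT and at 1.57, 1.49, 1.71 and 1.20 FPKM in Mutant (log2 fold change 0.12). For each of these genes 1 WT library stood away from the other two, replicate 2 at the low end for *Hoxb2* and *Hoxb9* and the library labelled wild-type replicate 3 at the high end for *Hoxb7*, and without that library the sign of the estimate changed.

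The 19 *Hox* genes under the filter were not tested, and their highest value in a library was 0.799 FPKM, for *Hoxa6*. Among them the groups stayed apart for *Hoxd13*, with 0.0135, 0 and 0.0142 FPKM in WT and 0.0459, 0.0333, 0.0150 and 0.0151 FPKM in Mutant (exact permutation test of the means, two-sided, p = 0.143). All these values are near 0, and the highest WT value, 0.0142, was close to the lowest Mutant value, 0.0150. No share over all genes under the filter is given beside this gene, so no conclusion is drawn from it.

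Noncoding genes of the clusters were listed apart from the *Hox* genes. Of 20 such genes looked for, 13 were in the table, the 6 miRNA genes among them were listed at 0 in all libraries, and 3 were tested: *Haglr* in HoxD, *Hoxaas3* in HoxA and *Hoxd3os1*, which lies on the strand opposite to *Hoxd3*. The miRNA gene models are shorter than the cDNA fragments of these libraries, so their 0 does not show that they were not expressed. *Hoxd3os1* was at 1.25, 0.595 and 0.894 FPKM in WT and at 0.366, 0.472, 0.542 and 0.306 FPKM in Mutant. Every Mutant value lay below every WT value, and its log2 fold change came to -0.60 (standard error 0.18, unadjusted p = 0.0110, adjusted p = 0.198 from limma). *Hoxd3os1* was thus 1 of 3 tested genes with groups apart, beside 7.59% of all genes tested with every Mutant value below. It was also the only 1 of the 3 with an unadjusted p under 0.05, beside 8.79% of all genes with a lower level. *Hoxd3* itself, whose gene model overlaps it, was at 2.55, 1.83 and 3.44 FPKM in WT and at 2.39, 2.88, 2.22 and 2.13 FPKM in Mutant, with the Mutant values inside the WT range. *Haglr*, transcribed from the *Hoxd1* to *Hoxd3* interval, had a log2 fold change of 0.11 and *Hoxaas3* one of -0.32. *Hotair*, in HoxC, was under the filter, at 0.0125, 0 and 0.0132 FPKM in WT and at 0.0283, 0.0155, 0.0277 and 0.0278 FPKM in Mutant. Its Mutant values all lay above the WT values (exact permutation test of the means, two-sided, unadjusted p = 0.0571). The values of *Hotair* too are near 0, without a share over all genes under the filter beside them.

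HOX proteins bind DNA together with TALE homeodomain proteins. All 9 genes of this family looked for were in the table and 8 were tested, 0 past the adjusted threshold and 1, *Pbx3*, with an unadjusted p under 0.05 (log2 fold change 0.24, adjusted p = 0.274 from limma), against the 8.21% of all genes with such a p and a higher level. *Pbx3* was at 8.87, 9.91 and 8.57 FPKM in WT and at 11.2, 12.3, 9.58 and 10.4 FPKM in Mutant, with Mutant replicate 3 within the WT range. *Meis1*, a partner of many HOX proteins, was at 46.4, 38.1 and 45.1 FPKM in WT and at 49.2, 53.5, 42.6 and 41.7 FPKM in Mutant. The list had a median log2 fold change of 0.10.

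Polycomb proteins keep *Hox* genes silent and Trithorax proteins keep them active. Of 16 Polycomb genes tested, 0 were past the adjusted threshold (limma); 1 had an unadjusted p under 0.05 with a higher level in Mutant, *Ezh2*, and 5 with a lower level, *Jarid2*, *Ezh1*, *Phc1*, *Cbx2* and *Eed*, beside the shares of 8.21% and 8.79% over all genes tested. *Ezh2*, the main methyltransferase of the complex, was at 39.1, 42.4 and 43.98 FPKM in WT and at 47.5, 52.1, 43.8 and 53.7 FPKM in Mutant. *Eed*, its partner in the same complex, was at 38.99, 42.4 and 37.3 FPKM in WT and at 35.8, 32.7, 32.0 and 33.7 FPKM in Mutant. The groups of *Ezh2* overlapped and those of *Eed* did not. *Jarid2*, which recruits that complex, was at 20.2, 13.6 and 14.1 FPKM in WT and at 11.4, 12.1, 12.2 and 10.7 FPKM in Mutant. *Phc1*, of the other main Polycomb complex, was at 12.5, 9.96 and 9.94 FPKM in WT and at 8.62, 8.07, 7.94 and 8.68 FPKM in Mutant. The groups of these genes did not overlap either, and in both WT replicate 1 was the highest library. With *Eed*, 3 of the 16 Polycomb genes had every Mutant value below every WT value, beside 7.59% of all genes tested. *Cbx2*, a further Polycomb gene, was at 17.0, 14.8 and 16.1 FPKM in WT and at 14.8, 13.8, 11.9 and 12.3 FPKM in Mutant, with Mutant replicate 1 inside the WT range. Of 11 Trithorax and related genes tested, 0 were past the adjusted threshold, and 3 had an unadjusted p under 0.05 with a lower level in Mutant: *Ash2l*, *Rbbp5* and *Wdr5*, which encode subunits shared by the MLL complexes, beside 8.79% of all genes tested. *Ash2l* had the largest estimate of these, -0.41 (adjusted p = 0.191 from limma), with 81.7, 64.8 and 58.4 FPKM in WT and 55.9, 49.6, 53.9 and 45.0 FPKM in Mutant. *Rbbp5* was at 22.1, 22.0 and 21.1 FPKM in WT and at 17.7, 17.8, 19.1 and 17.5 FPKM in Mutant. *Wdr5* was at 70.3, 74.7 and 61.9 FPKM in WT and at 61.3, 59.7, 60.7 and 59.0 FPKM in Mutant. In all 3 genes every Mutant value lay below every WT value, beside 7.59% of all genes tested. Of the 11 estimates in this list 4 were positive, among them that of *Dpy30* at 0.0032. The medians were -0.04 for the Polycomb and -0.07 for the Trithorax list. The sum of the 10 germ cell genes was between 594 and 1365 FPKM in WT and between 485 and 640 FPKM in Mutant, and its part in these values was not tested.

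Genes listed around the clusters, not all of them the nearest neighbour of a *Hox* gene, differed widely in level. *Mtx2*, which flanks HoxD, was between 105 and 129 FPKM, and *Evx2*, the gene next to *Hoxd13*, was listed at 0 in all libraries. Of 17 flanking genes found, 14 were tested, with 0 past the adjusted threshold (limma) and 2, *Calcoco1* and *Skap2*, with an unadjusted p under 0.05 and a lower level in Mutant, beside 8.79% of all genes tested. *Calcoco1* was at 34.8, 34.5 and 34.5 FPKM in WT and at 31.7, 31.8, 32.4 and 29.2 FPKM in Mutant. *Skap2* was at 28.2, 29.5 and 24.3 FPKM in WT and at 23.1, 23.4, 22.8 and 24.4 FPKM in Mutant. The groups of *Calcoco1* did not overlap and those of *Skap2* did. The groups of *Smug1* did not overlap either, with 8.42 to 9.02 FPKM in WT and 7.36 to 8.16 FPKM in Mutant. Thus 2 of 14 genes had every Mutant value below every WT value, beside 7.59% of all genes tested. Over the 14 genes the median log2 fold change was -0.12, with 12 of 14 estimates negative, beside 6694 of 13988 over all genes tested. None of the 8 genes of the Cdx, ParaHox and Evx families, which are relatives of the *Hox* genes, reached the filter, and their summed FPKM was between 0.214 and 0.478.

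The table of retrotransposon loci gave a second view of the clusters, taken from the first to the last base of their *Hox* gene models. *Hox* clusters of mammals are known to be poor in such elements. HoxA, on chromosome 6 (mm10), held 3 LINE, SINE or LTR loci in 106 kb, or 2.84 per 100 kb. HoxC, on chromosome 15 from 102921131 to 103036852, held 12 (10.4 per 100 kb), and HoxD, on chromosome 2 from 74668310 to 74765142, held 25 (25.8 per 100 kb). The genome had 128 per 100 kb, and the flanks of the same length on either side of these clusters between 141 and 161. HoxB, on chromosome 11 from 96194361 to 96368253, held 183 loci (105 per 100 kb, against 218 in its flanks), but 157 of these lay in the 77.0 kb between *Hoxb13* and *Hoxb9*, at 204 per 100 kb. Between *Hoxb9* and *Hoxb1* the density was 26.8 per 100 kb, close to that of HoxD.

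**Figure D5:**
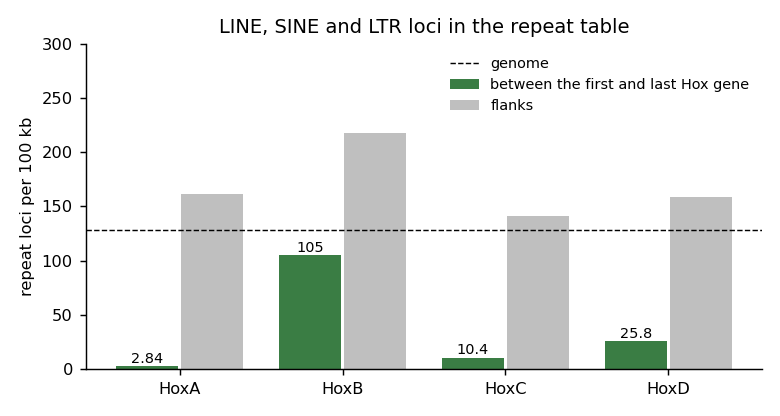
LINE, SINE and LTR loci per 100 kb (y axis) between the first and last *Hox* gene of each cluster (green, with the value above) and in flanks of the same length on both sides (grey); the dashed line is the genome at 128. HoxA, HoxC and HoxD lie at 2.84, 10.4 and 25.8, and HoxB at 105, each under its flanks (161, 141, 159 and 218 for HoxA, HoxC, HoxD and HoxB).

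Reads in these loci did not differ between the groups beyond the spread of the libraries. As CPM, reads scaled to the total of the repeat table, HoxC loci were at 21.6, 21.0 and 20.2 in WT and at 26.1, 25.5, 19.0 and 22.2 in Mutant, and HoxD loci at 18.0, 16.9 and 17.4 in WT and at 19.2, 18.5, 14.2 and 13.9 in Mutant. The log2 ratios of the means were 0.15 for HoxC and -0.08 for HoxD (exact permutation tests, two-sided, adjusted p = 0.571 for each of the 4 clusters). The locus with the most reads in HoxC, an L1MEg element, lies inside the gene model of *Hoxc8*. That of HoxD, a B1F element, lies inside the model of *Hoxd3*. Whether the reads in such loci belong to the gene was not tested. In HoxA, 17 reads were counted in the 7 libraries together, too few for a comparison. HoxB loci were at 805 ± 47.7 CPM (SD, n = 3) in WT and 769 ± 78.0 CPM (SD, n = 4) in Mutant, but 1 locus held 98.9% of these reads: an 18-base B4A element at 96248604 to 96248621 on chromosome 11, between *Hoxb13* and *Hoxb9*. The nearest gene in GENCODE M21 is the processed pseudogene *Gm11539*, which starts 12 bases further on. Which transcript these reads belong to was not tested. Without this locus, HoxB loci were at 8.25 ± 2.19 CPM (SD, n = 3) in WT and 8.77 ± 1.13 CPM (SD, n = 4) in Mutant.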

How the data were processed

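Groups were taken from the sample labels (3 WT and 4 Mutant libraries, 1 embryo each). The authors aligned reads to mm10 with TopHat2 2.0.12 and made FPKM values per RefSeq gene with Cuffnorm; these deposited FPKM values carry that workflow's scaling, and the fragments behind each are unknown. The authors made the deposited counts per LINE, SINE and LTR locus with HTSeq from uniquely mapped reads, without normalization. In both tables the header lacks a tab between 2 library names, so columns were taken by number, in the order of the names.

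Here, log2(FPKM + 0.5) was tested with limma 3.58.1 (trend, two-sided, Benjamini-Hochberg adjustment over 13988 genes whose mean reached 0.5 FPKM, threshold 0.05) in R 4.3.3, after a check on simulated data. Cuffdiff, the authors' test, works from alignments and was not run. Exact permutation tests over the 35 ways to assign 7 libraries to 3 and 4 used scipy 1.17.1 and cannot give a p below 0.0286. Repeat reads reached 3454317 to 4670830 per library; loci in a cluster were summed and divided by this total, and edgeR 4.0.16 and DESeq2 1.42.0 served for alternatives. RefSeq windows are of GRCm38.p6.

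Per-library values are given for the 2 highest genes of each cluster, the 3 largest estimates of each sign and any gene with an unadjusted p under 0.05 or with groups that do not overlap, and for the genes of each list with an unadjusted p under 0.05, at most 4 and those of smallest p; *Hoxd3*, *Hoxd4*, *Hoxd10*, *Hoxd11*, *Hoxd13*, *Hotair*, *Ezh2* and *Meis1* were added after their values were seen. The members and lists were chosen with earlier results of these data known. The values of 1 member are not reported here.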

Additional observations from a re-analysis of the deposited data

Results flagged for a closer look

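Among 35 values screened in the 4 Mutant libraries, 4 had 1 library far from the other 3 by Dixon's ratio, the gap to the nearest library over the whole range and passed its 95% limit; chance alone gives such a ratio in about 1 of 20 groups. The ratio of *Hoxd9* to *Hoxd10* was 1.499 in Mutant replicate 3 and between 1.63 and 1.65 in the others (Dixon's ratio 0.873). That of *Hoxd8* to *Hoxc8* was 21.1 in Mutant replicate 4 and between 18.6 and 19.0 in the others (0.839). That of *Hoxd4* to *Hoxd3*, whose gene models overlap, was 3.34 in Mutant replicate 2 and between 3.71 and 3.78 in the others (0.847). Repeat reads in HoxA were 0 in Mutant replicate 1 and between 0.505 and 0.579 CPM in the others (0.871), values that stand for at most 2 reads in a Mutant library. None of the levels of the 12 *Hox* genes chosen by rule stood apart in this way.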

How the results depend on the processing

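Across pseudocounts of 0.1 and 1, other filters, array weights, no trend, quantile normalization, centring on the median, the replicate block and leaving out each library, 0 *Hox* genes were past the adjusted threshold (limma). The count over all genes, 1, was 4 without a filter, 3 after quantile normalization and 0 with the block, and lay between 1 and 722 when 1 library was left out, 722 being without the library labelled wild-type replicate 3. *Hox* genes with an unadjusted p under 0.05, 0 in the report, were 1 without a filter (*Hoxa13*) and 1 without the trend (*Hoxc9*), and between 0 and 2 with 1 library left out. Those with groups that did not overlap were 1 without a filter (*Hoxd13*) and between 0 and 4 with 1 library left out. Without the library labelled wild-type replicate 3 *Glis3* had a log2 fold change of -1.09, within -1.09 to -0.46 over all libraries left out (adjusted p from 0.00992 to 0.57, limma). Genes at 2 FPKM or more were 9, against 16 at 1 FPKM. Signs changed for small estimates: *Hoxc6* was -0.0147 with array weights and between -0.0705 and 0.12 with 1 library left out, *Hoxa9* between -0.28 and 0.0718, *Hoxa10* between -0.33 and 0.1328, *Hoxb2* between -0.0714 and 0.33, *Hoxb7* between -0.23 and 0.072, *Hoxb9* between -0.0825 and 0.23 and *Hoxd9* between -0.0166 and 0.17; the cause was not tested. The adjusted p of *Hoxc9* lay between 0.274 and 0.553 over the alternatives and that of *Hoxd8* between 0.26 and 0.721 (limma). HoxB repeat reads had log2 ratios of 0.0081 with TMM library sizes, 0.0082 in the edgeR test and, in an alternative chosen after seeing the data, 0.0884 without the B4A locus, against -0.07. For HoxC the ratio was 0.21 with TMM library sizes and 0.19 with DESeq2 size factors (exact permutation tests, unadjusted p = 0.0857 and 0.114). The edgeR test gave 0.23 (unadjusted p = 0.0664), against 0.15 in the main setting (exact permutation test, unadjusted p = 0.343). HoxD ratios were -0.0198 with TMM library sizes and -0.0102 in the edgeR test, against -0.08.

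WT and Mutant libraries share replicate numbers. The deviations of same-numbered libraries correlated at 0.198, -0.177 and 0.229, and 4 of 6 correlated best with their own number. These values do not settle whether the numbers are pairs, and the main test did not take them as pairs. With the replicate block the median of the tested *Hox* genes was 0.0145. Of the alternative values for single *Hox* genes, 175 kept sign and side of the threshold and 10 changed sign. Genes near 0 FPKM rest on few fragments, and differences within their spread could not be detected.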

Other observations

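Of 11 ratios between *Hox* genes that were computed to describe their order, 2 did not overlap between the groups, both higher in Mutant. Among the levels of all single genes tested, 7.31% had every Mutant value above every WT value and 7.59% every Mutant value below. No such share is given for ratios. The ratio of *Hoxd8* to *Hoxc8* was 13.5, 17.8 and 15.2 in WT and 18.6, 18.9, 19.0 and 21.1 in Mutant. The ratio of *Hoxc6* to *Hoxc5*, whose gene models start 4.45 kb apart, was 1.502, 1.51 and 1.46 in WT and 1.83, 1.64, 1.77 and 1.90 in Mutant. These ratios were chosen after the values were seen and were not tested.

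*Gm53*, a noncoding gene between *Hoxb13* and *Hoxb9* that was in none of the lists, was more abundant than the *Hox* genes on either side of it. It was at 3.28, 4.35 and 3.88 FPKM in WT and at 4.66, 5.40, 3.80 and 5.62 FPKM in Mutant (log2 fold change 0.30, standard error 0.14, adjusted p = 0.328 from limma). *Hoxb9* had a mean of 1.43 FPKM and *Hoxb13* one of 0.0422 FPKM.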
